A study of Mus musculus with 9 samples.

Results

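The 40 genes described here are cell cycle and DNA replication genes of the mouse, 23 that act in mitosis and 17 that act in S phase or prepare for it. They were chosen by gene symbol, with no measured value in the rule, and each was found once among the 55339 gene names of all 9 libraries. All 40 passed the filter on low counts that left 16520 genes for testing. The libraries were polyA RNA-seq of labial mucosa biopsies from 3 mouse strains. B6 (replicates 1, 2 and 3) was labelled as ILC1 cells, that is, type 1 innate lymphoid cells. Tac111 (replicates 1, 2 and 3) and Tac146 (replicates 2, 3 and 4) were both labelled as T cells. All mice had been infected before the biopsy. Neither the agent, nor the strains' alleles, nor the mice's ages are stated in the labels. Between B6 and each of the other strains, strain and labelled cell type changed together, and their parts in a difference cannot be told apart, whereas Tac111 and Tac146 share the label. Nothing in the labels ties each library to its own mouse, and p-values measure only the spread between these libraries, which may be technical.

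A dividing cell copies its DNA in S phase and separates the copies in mitosis, and the genes for these steps are switched on in order. E2F factors act at the G1/S boundary on genes for origin licensing, the replicative helicase and nucleotide supply. Later, in G2 and mitosis, the MuvB complex with B-MYB and FOXM1 acts on genes for mitotic kinases, the centromere and the spindle, many of which carry a short promoter element called CHR (cell cycle genes homology region), often near CCAAT boxes. In oral mucosa the dividing cells lie mainly in the basal layers of the epithelium, with hair follicle matrix, stromal and immune cells as further sources in lip tissue.

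The promoters of both groups carried different elements, and 6 are shown because they hold the words that set mitotic and replication genes apart. Each stretch is the 200 bases before the RefSeq transcript start on GRCm38.p6, written in the direction of the gene, with CHR words (TTTGAA) and E2F words in capitals. The E2F words searched were TTTCCCGC, TTTCGCGC, TTTGCCGC and TTTGGCGC, and every word was searched on both strands, so a match on the other strand appears as its reverse complement. No CHR word lies within an E2F word. Cdk1 lies at chr10:69352913-69353112 on the minus strand, Cdc20 at chr4:118437344-118437543 on the minus strand and Mki67 at chr7:135716380-135716579 on the minus strand. Mcm5 lies at chr8:75109309-75109508 on the plus strand, Mcm6 at chr1:128359706-128359905 on the minus strand and Cdc6 at chr11:98907951-98908150 on the plus strand.
Cdk1: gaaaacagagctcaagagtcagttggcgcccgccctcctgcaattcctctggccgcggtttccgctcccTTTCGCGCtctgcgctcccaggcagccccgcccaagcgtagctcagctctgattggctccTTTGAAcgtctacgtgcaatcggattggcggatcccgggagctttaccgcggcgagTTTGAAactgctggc
Cdc20: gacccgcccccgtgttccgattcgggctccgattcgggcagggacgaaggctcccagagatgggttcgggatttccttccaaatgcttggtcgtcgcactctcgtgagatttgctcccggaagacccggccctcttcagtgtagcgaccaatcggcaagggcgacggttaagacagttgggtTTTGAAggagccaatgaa
Mki67: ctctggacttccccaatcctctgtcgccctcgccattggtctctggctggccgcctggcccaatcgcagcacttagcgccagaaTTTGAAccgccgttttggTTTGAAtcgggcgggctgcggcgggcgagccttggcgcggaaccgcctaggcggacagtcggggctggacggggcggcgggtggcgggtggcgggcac
Mcm5: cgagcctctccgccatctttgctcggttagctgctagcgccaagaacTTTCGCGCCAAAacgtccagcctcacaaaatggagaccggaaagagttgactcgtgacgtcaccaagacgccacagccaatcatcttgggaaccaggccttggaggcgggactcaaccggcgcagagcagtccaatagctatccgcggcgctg
Mcm6: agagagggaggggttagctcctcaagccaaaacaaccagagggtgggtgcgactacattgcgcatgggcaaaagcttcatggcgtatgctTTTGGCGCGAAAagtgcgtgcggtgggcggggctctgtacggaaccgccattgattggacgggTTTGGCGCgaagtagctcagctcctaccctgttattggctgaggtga
Cdc6: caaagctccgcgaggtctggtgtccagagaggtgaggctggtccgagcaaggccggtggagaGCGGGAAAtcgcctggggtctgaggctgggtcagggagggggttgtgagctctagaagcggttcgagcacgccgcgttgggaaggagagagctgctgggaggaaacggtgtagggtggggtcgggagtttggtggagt
Cdk1 held 2 CHR words and 1 E2F word, Cdc20 held 1 CHR word and Mki67 held 2. Mcm5 and Mcm6 held 2 and 3 E2F words, in each promoter including a pair that overlaps on opposite strands and reads as 1 longer run of capitals. Cdc6 held 1 E2F word, on the opposite strand.

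Of the 40 genes, 33 had a promoter window of 300 bases (250 before to 50 after the start), 19 mitotic and 14 replication genes. CHR words stood in 14 of 19 mitotic windows (73.7%), in 1 of 14 replication windows (Mcm2, 7.14%) and in 20.2% of the 27025 mouse genes with a window. E2F words stood in 6 of 14 replication windows (Cdc6, Cdt1, Mcm3, Mcm5, Mcm6 and Mcm7, 42.9%), in 1 of 19 mitotic windows (Cdk1) and in 2.6% of all genes. CHR words were thus the more frequent in mitotic and E2F words in replication windows, with Cdk1 and Mcm2 as the genes that held the other group's word. CCAAT, a box bound by NF-Y, stood in 17 of 19 mitotic windows, in 8 of 14 replication windows and in 41.1% of all genes. Other genes of the same processes had the same tilt for E2F words, which stood in 15 of 41 windows of other replication genes and in 3 of 41 of other mitotic genes. CHR words stood in 27 of 41 windows of other mitotic genes and in 11 of 41 of other replication genes. A match describes letters in a window and does not show binding.

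**Figure D1:**
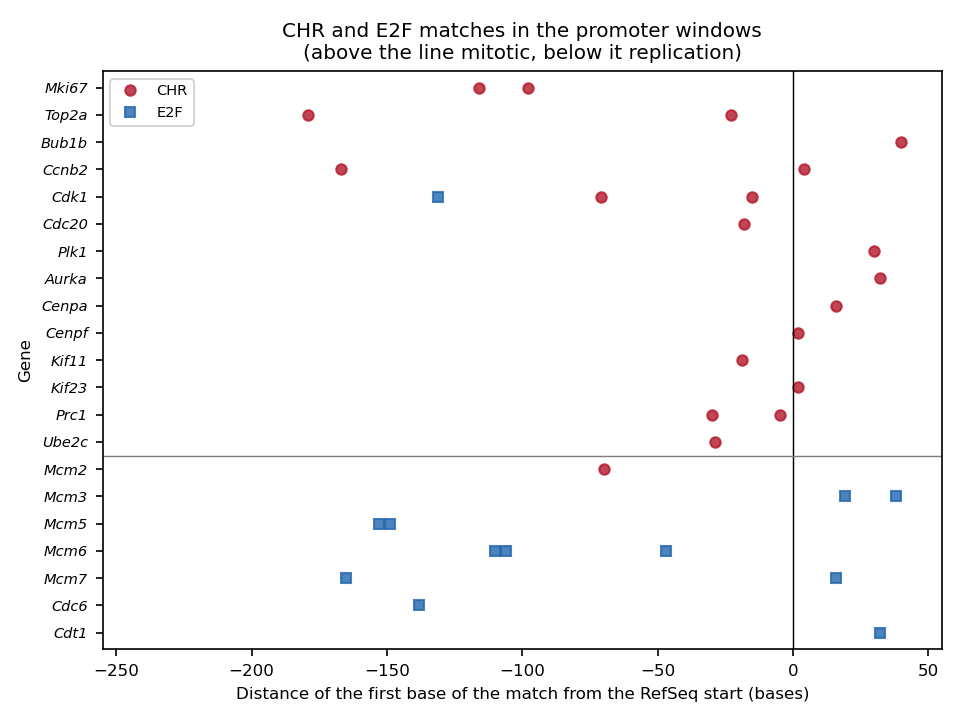
Positions of CHR (circles) and E2F (squares) matches in the promoter windows of the members that hold one; the x axis is the distance in bases from the RefSeq start, and each row is a gene, with mitotic genes above the grey line. CHR matches fill the mitotic rows and E2F matches the replication rows, apart from Mcm2 and Cdk1. Prc1 has 2 windows with different starts, and its 2 circles are 1 site.

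The libraries held 27192359 to 46456500 counts, and every level below is in CPM, that is, a count divided by the TMM-normalised library size and put on a common total. Transcripts of epithelium were abundant in every library: Krt5, a keratin of the basal layer, stood between 3620 and 4270 CPM, and the summed basal keratinocyte markers lay between 9740 and 10900. Markers of the labelled cells were scarce. Cd3d, Cd3e and Cd3g, which encode the CD3 chains of the T cell receptor complex, were at 0 in all 3 Tac111 libraries and below 1 CPM in all 3 Tac146 libraries, both labelled as T cells, while Cd3e stood at 0.974 to 1.69 in B6. Other T cell markers were present in every strain: the list summed to 15.8 to 19.0 CPM in Tac111, 18.1 to 20.2 in Tac146 and 23.8 to 28.6 in B6. Of that list, Trbc2, a constant segment of the T cell receptor, stood at 5.27 to 7.64 CPM in B6 and 5.55 to 7.68 in Tac111, and Cd5, a surface receptor of T cells, at 7.71 to 9.61 and 8.42 to 9.22. Most of the list was lower in Tac111: of 11 markers tested, 9 had a fold change below 0 against B6. By edgeR at an adjusted p under 0.05, 7 were called lower, against 3.80% of all genes called in either direction. In Tac146, 5 were called lower than in B6, against 0.303%. The 12 ILC1 and natural killer cell markers summed to 15.7 to 22.0 CPM in B6, 17.2 to 23.7 in Tac146 and 1.23 to 1.83 in Tac111. The cell cycle levels below are therefore those of whole mucosal tissue, and in such tissue fewer cells of a type and less RNA per cell cannot be told apart.

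One library, Tac146 replicate 4, stood apart for these genes, and strain comparisons are given with and without it. Sample titles open with a number, which is consecutive within B6, within Tac111 and for Tac146 replicates 2 and 3, but not for Tac146 replicate 4. What that number stands for is not known here. All 23 mitotic members were higher in it than in any of the other 8 libraries, and 14 of the 17 replication members were lower in it than in any other. Over all genes tested, 22.4% were highest and 21.4% lowest in this library. Against the mean of Tac146 replicates 2 and 3, the mitotic members stood at a median of 1.99 times, from 1.58 (Aurkb) to 2.37 (Kif20a), and the replication members at a median of 0.644 times, from 0.448 (E2f1) to 0.925 (Rrm2). The median over all genes tested was 1.00. The 3 replication members that were not lowest there were Ccne1, Rrm1 and Rrm2.

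**Figure D2:**
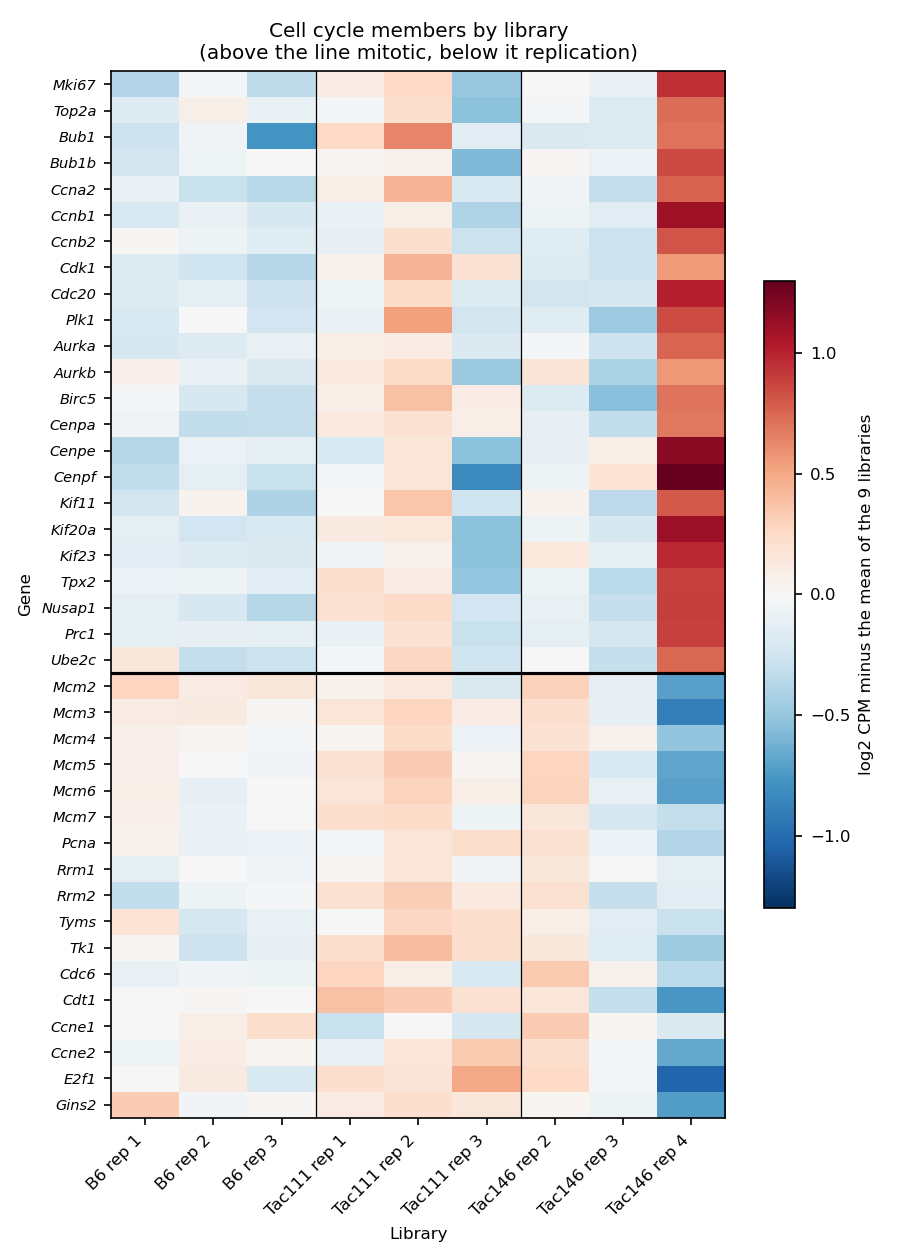
Level of each of the 40 members (rows) in each of the 9 libraries (columns), as log2 CPM minus the gene's mean over the libraries; red is higher and blue lower, and the black line divides 23 mitotic from 17 replication genes. The last column, Tac146 replicate 4, is red for all mitotic genes and blue for the replication genes.

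The mean log2(CPM + 0.5) of the mitotic members minus that of the replication members put this contrast in 1 value per library. It was -0.88, -0.80 and -0.92 in B6, -0.78, -0.68 and -1.08 in Tac111, and -0.96, -0.82 and 0.62 in Tac146 replicates 2, 3 and 4. The 8 other libraries thus lay within a narrow band below 0, and only Tac146 replicate 4 lay above 0. Summed CPM gave the same order at the top, with a ratio of mitotic to replication members of 1.86 in Tac146 replicate 4 and 0.535 to 0.727 in the other libraries; this ratio is not per length and is read only between libraries. The difference was -0.87 ± 0.06 (SD, n = 3) in B6, -0.85 ± 0.21 (SD, n = 3) in Tac111 and -0.39 ± 0.88 (SD, n = 3) in Tac146. Without replicate 4 Tac146 stood at -0.89 ± 0.10 (SD, n = 2). Tac146 minus B6 was 0.48 with all libraries and -0.02 without replicate 4, and Tac111 minus Tac146 was -0.46 and 0.04. Tac111 minus B6 was 0.02. All of these strain differences were smaller than the larger of the SDs of the strains compared when all libraries were used, and no test was made on this score because its members were chosen with earlier results known.

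**Figure D3:**
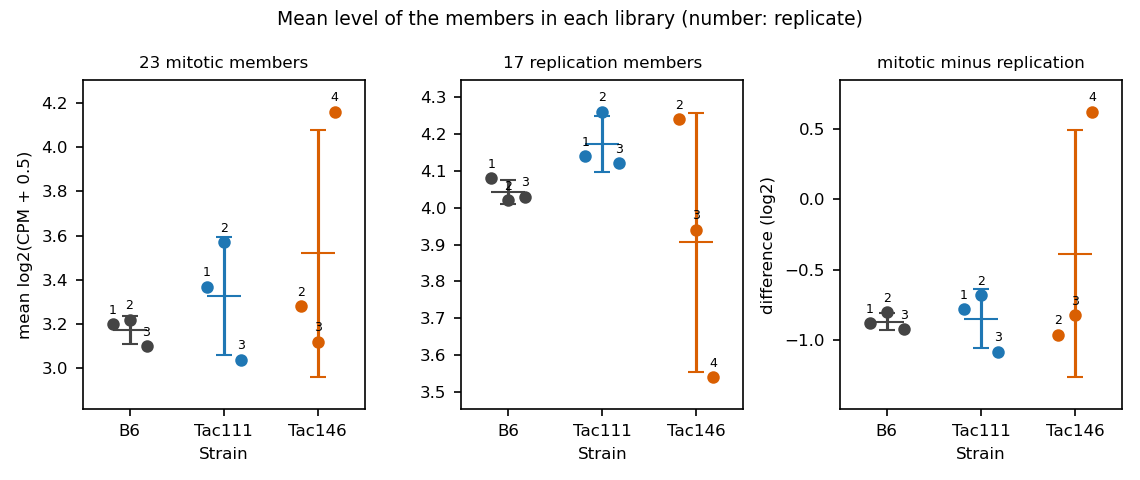
Mean log2(CPM + 0.5) of the 23 mitotic members, of the 17 replication members and their difference in each library; points are libraries numbered by replicate, and the cross bars and whiskers are the mean and SD of 3 libraries per strain. Tac146 replicate 4 is highest in the mitotic panel (4.16), lowest in the replication panel (3.54) and the only point above 0 in the difference.

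Some other signals also set this library apart, and others did not. Summed skeletal muscle markers stood at 22100 CPM in Tac146 replicate 4 and at 32700 to 41900 in the other libraries, and all 12 were below the mean of Tac146 replicates 2 and 3. All 17 hair follicle markers measured were above that mean, with a sum of 4650 CPM against 2650 and 1310 in replicates 2 and 3. That sum lay inside the range of the other libraries, which reached 5050 CPM in Tac111. Replicate 4 was the highest of the 9 libraries for 4 of these 17 genes, against 22.4% of all genes tested. Tac146 replicate 3 was the lowest for all 17, against 9.7% of all genes. Fibroblast and endothelial markers summed to 1380 CPM in replicate 4 and to 1970 to 3000 in the other libraries, at a median of 0.658 times the mean of replicates 2 and 3. Basal keratinocyte markers were close to level, at a median of 1.05 times and a sum of 10200 CPM against 9740 and 10900. Of 13 differentiated keratinocyte markers, 12 were above the mean of replicates 2 and 3, at a median of 1.25 times. Their sum of 108000 CPM lay inside the 74500 to 113000 of the other libraries. Of 10 leukocyte and macrophage markers, 8 were below the mean of replicates 2 and 3, at a median of 0.76 times. Clock genes, chosen after the members' values were seen, also differed: Arntl, an activator of the circadian clock, stood at 19.1 CPM in Tac146 replicate 4 and at 4.8 to 6.71 in the other libraries, and its target Per2 at 7.58 against 21.4 to 30.4. Replicate 4 was also the deepest library, at 46456500 counts. The part of these signals in the result was not tested.

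The mitotic cyclins and kinases, the engines of mitotic entry, were 7 of the members. Ccnb1 encodes cyclin B1, the partner of Cdk1, and stood at 11.1, 12 and 11 CPM in B6, 12, 13.4 and 9.71 in Tac111 and 12.2, 11.5 and 27.4 in Tac146 replicates 2, 3 and 4. Cdk1, the mitotic kinase itself, stood at 9.45, 8.84 and 8.18 in B6, 11, 14.4 and 12.1 in Tac111 and 9.38, 8.78 and 15.5 in Tac146. The 3 Tac111 values of Cdk1 lay above the 3 B6 values, whereas those of Ccnb1 overlapped. Plk1, a kinase of spindle assembly and mitotic exit, stood at 4.70, 5.43 and 4.54 in B6, 5.10, 7.80 and 4.59 in Tac111 and 4.84, 3.90 and 9.74 in Tac146. Aurkb, the kinase of the chromosomal passenger complex, stood at 5.97, 5.36 and 5.0 in B6, 6.25, 6.79 and 4.07 in Tac111 and 6.39, 4.30 and 8.42 in Tac146. For both kinases the strains overlapped, and the highest value was that of Tac146 replicate 4. Ccna2, Ccnb2 and Aurka followed the same order at the top, at 25.9, 12.4 and 6.64 CPM in that library.

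The spindle checkpoint holds the cell before anaphase until every chromosome is attached, and Cdc20 then activates the anaphase-promoting complex. Cdc20 stood at 12.4, 12.8 and 11.6 CPM in B6, 13.4, 16.4 and 12.3 in Tac111 and 11.8, 12.1 and 28.1 in Tac146 replicates 2, 3 and 4. Bub1, a checkpoint kinase, stood at 2.36, 2.75 and 1.66 in B6, 3.40, 4.41 and 2.59 in Tac111 and 2.5, 2.52 and 4.63 in Tac146. Apart from Tac146 replicate 4, the libraries of Cdc20 spanned 11.6 to 16.4 CPM, and Tac111 replicate 2 was the highest of them for both genes. Bub1b, the other checkpoint kinase-like protein, and Ube2c, the ubiquitin-conjugating enzyme of the complex, each stood at 1.85 times the mean of the other Tac146 libraries in replicate 4. Ube2c overlaps Tnnc2, a skeletal muscle gene on the opposite strand, and no source used here gives the strand setting of the counting, so its level is uncertain. In all, 18 members overlap another annotated gene, on the opposite or the same strand. Overlaps were taken over whole gene spans, introns included, and whether exons are shared was not checked. Where exons are shared on the opposite strand the doubt is the same as for Ube2c. Where they are shared on the same strand, a level is uncertain under any strand setting. Among the 18 are Cdc20 (overlapping Elovl1), Ccna2 (Exosc9), Mcm7 (Cops6), Tk1 (Afmid), Gins2 (Gse1) and Cdt1 (Gm20388, on the same strand). Mki67, Top2a, Plk1 and Cenpf are also among the 18.

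Proteins of the mitotic chromosome and centromere held the members with the largest fold changes between Tac146 and B6. Mki67, the coat protein of mitotic chromosomes used as a proliferation marker (chr7:135689784-135716361, GRCm38), stood at 34.0, 43.3 and 35.1 CPM in B6, 47.2, 52.9 and 31.3 in Tac111 and 44.2, 41.6 and 85.5 in Tac146 replicates 2, 3 and 4. Top2a, which untangles sister chromatids, stood at 30.8, 36.6 and 32.6 in B6, 34.0, 40.7 and 24.0 in Tac111 and 34.1, 30.6 and 57.5 in Tac146. Both markers were highest in Tac146 replicate 4 and lowest in Tac111 replicate 3. Cenpf, a kinetochore protein (chr1:189640606-189688086), stood at 9.00, 10.3 and 9.18 in B6, 11, 12.5 and 6.31 in Tac111 and 10.7, 12.7 and 27.6 in Tac146. Cenpe, the kinetochore motor, stood at 5.30, 6.51 and 6.26 in B6, 5.96, 7.66 and 4.74 in Tac111 and 6.39, 7.25 and 15.5 in Tac146. The Tac146 values of Cenpf all lay above those of B6, while those of Cenpe overlapped. Cenpa, the histone variant of the centromere, and Birc5, a passenger complex subunit, stood at 13.3 and 12.3 CPM in Tac146 replicate 4 and at no more than 9.50 and 9.86 in the others.

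Motors and bundling proteins of the spindle and cytokinesis gave the highest median in Tac146 replicate 4, 2.11 times the mean of the other Tac146 libraries over 6 genes. Kif23, the motor of the central spindle, stood at 7.61, 7.44 and 7.36 CPM in B6, 8.17, 8.71 and 5.79 in Tac111 and 9.16, 7.65 and 16.5 in Tac146 replicates 2, 3 and 4. Kif11, Kif20a, Tpx2, Nusap1 and Prc1, which separate spindle poles, drive cytokinesis, nucleate, stabilise and bundle microtubules, stood at 1.90 to 2.37 times. Tac111 replicate 3 was the lowest library for 12 of the 23 mitotic members, against 22.9% of all genes tested.

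**Figure D4:**
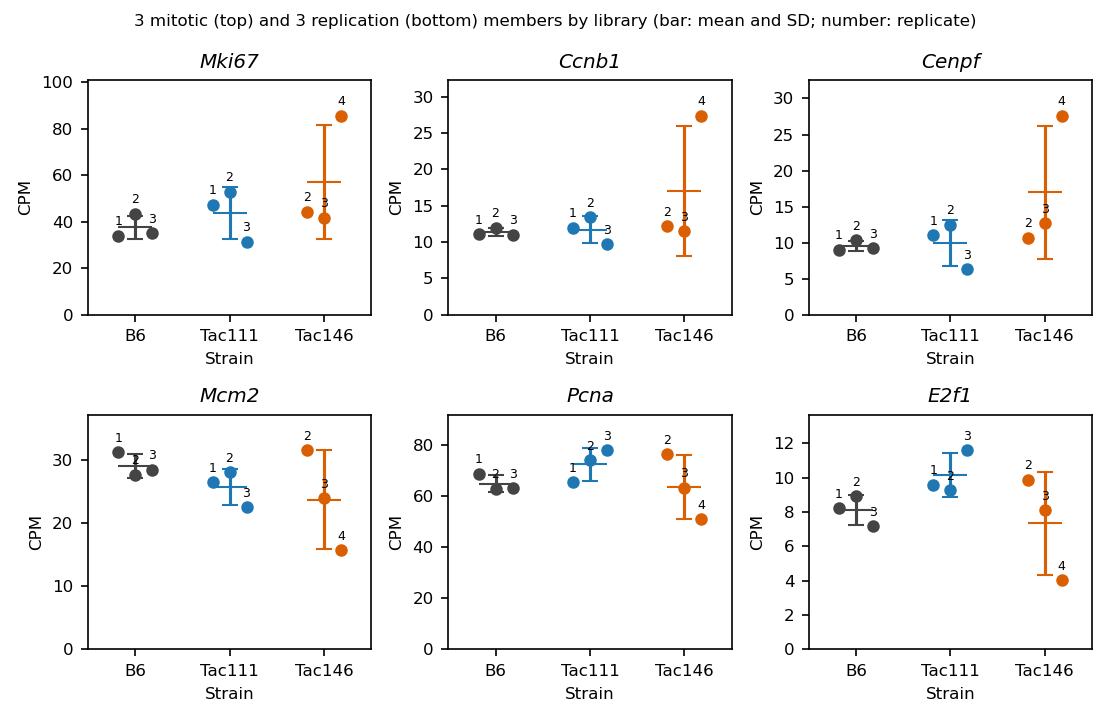
CPM of Mki67, Ccnb1 and Cenpf (mitotic, top) and of Mcm2, Pcna and E2f1 (replication, bottom) in each library; points are libraries numbered by replicate, and bars are the mean and SD of 3 libraries per strain. Tac146 replicate 4 is the highest point in each top panel and the lowest in each bottom panel.

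Genes of the replicative helicase, which unwinds DNA ahead of the fork, went the other way in Tac146 replicate 4. Mcm2, a helicase subunit (chr6:88883474-88898780), stood at 31.2, 27.6 and 28.4 CPM in B6, 26.4, 28.0 and 22.5 in Tac111 and 31.5, 23.9 and 15.7 in Tac146 replicates 2, 3 and 4. Mcm5 stood at 31.2, 30.0 and 29.2 in B6, 34.2, 37.5 and 30.5 in Tac111 and 36.3, 26.0 and 18.5 in Tac146. For both subunits replicate 4 was the lowest of the 9 libraries, and Tac146 replicate 2 lay above replicate 3. Mcm3, Mcm4, Mcm6, Mcm7 and the helicase cofactor Gins2 stood at 0.514 to 0.818 times the mean of the other Tac146 libraries.

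Licensing and S phase entry genes load the helicase and start replication. Cdc6, a helicase loader, stood at 2.86, 2.99 and 2.92 CPM in B6, 3.72, 3.25 and 2.68 in Tac111 and 3.87, 3.19 and 2.40 in Tac146 replicates 2, 3 and 4. Cdt1, the other loader, stood at 9.76, 9.78 and 9.71 in B6, 12.6, 12.2 and 11.1 in Tac111 and 10.8, 7.83 and 5.73 in Tac146. The Tac111 values of Cdt1 lay above all 6 values of the other strains, whereas Cdc6 overlapped. E2f1, the transcription factor of G1/S genes (chr2:154559407-154569892), stood at 8.21, 8.91 and 7.16 in B6, 9.59, 9.28 and 11.6 in Tac111 and 9.89, 8.11 and 4.03 in Tac146. Ccne1, cyclin E1, stood at 3.77, 4.0 and 4.41 in B6, 3.08, 3.79 and 3.26 in Tac111 and 4.73, 3.84 and 3.31 in Tac146. Ccne1 was the 1 gene of these for which Tac111 replicate 1, not Tac146 replicate 4, was lowest. Ccne2 stood at 4.19 CPM in Tac146 replicate 4 and at 6.22 or more in the others.

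For the sliding clamp and nucleotide supply, Tac146 replicate 4 lay closest to the other Tac146 libraries, at a median of 0.832 times over 5 genes. Pcna, the clamp (chr2:132249162-132253314), stood at 68.7, 62.8 and 63.0 CPM in B6, 65.4, 74.1 and 77.9 in Tac111 and 76.3, 63.2 and 51.0 in Tac146 replicates 2, 3 and 4. Rrm2, the regulated subunit of ribonucleotide reductase, stood at 10.6, 12.7 and 13.1 in B6, 15.2, 16.6 and 14.5 in Tac111 and 15.2, 10.8 and 12 in Tac146. All Tac111 values of Rrm2 lay above those of B6, and Tac146 replicate 4 lay inside the range of the other libraries. Tk1, thymidine kinase of the salvage pathway, stood at 16.1, 13.2 and 14.7 in B6, 18.4, 20.9 and 18.6 in Tac111 and 17.6, 14.2 and 11.5 in Tac146. The Tac111 values of Tk1 lay above all values of both other strains. Rrm1, the large reductase subunit, and Tyms, thymidylate synthase, stood at 0.873 and 0.832 times in replicate 4. Pcna-ps2, a pseudogene copy, reached at most 0.398 CPM, below 1 CPM in every library.

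Per kilobase of exon, replication genes were the more abundant group in 8 of the 9 libraries. The length used was that of all annotated exons of a gene merged, which can exceed the length of the transcript present. The order of genes and of the 2 groups per kilobase can therefore depend on the annotation. The median was 1.85 CPM per kb over mitotic and 3.83 over replication members in B6 and 2.14 and 3.81 in Tac111, as medians of strain means. In Tac146 it was 2.44 and 3.40 with all libraries and 1.81 and 3.98 without replicate 4. In Tac146 replicate 4 alone the order was the other way, with 3.77 over mitotic and 2.25 over replication members. Pcna was the highest of the 40 in every library, at 21.3 CPM per kb in Tac146 replicate 4 and 26.2 to 32.5 in the others. Cdc20 was the highest mitotic member in every library, at 15.0 CPM per kb in Tac146 replicate 4 and 6.19 to 8.76 in the others. The lowest replication member was Cdc6 in every library, at 0.460 in Tac146 replicate 4 and 0.512 to 0.740 in the others.

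Between Tac111 and B6, no member was called of 40 by edgeR's quasi-likelihood test, with Benjamini-Hochberg adjustment over all genes and a threshold of 0.05, against 3.80% of all genes tested, and DESeq2 called none, against 6.48%. At an unadjusted p under 0.05, 3 members were higher in Tac111 and none lower, against 9.50% and 12.3% of all genes. These were Tk1 (log2 fold change 0.39, SE 0.15, adjusted p = 0.166), Rrm2 (0.34, SE 0.14, adjusted p = 0.190) and Cdk1 (0.50, SE 0.20, adjusted p = 0.192). The next was Bub1 (0.61, SE 0.30, adjusted p = 0.264). The fold changes were small and mostly of 1 sign. Of 23 mitotic members, 21 had a value above 0, with a median of 0.13. So did 15 of 17 replication members, with a median of 0.14. Over all genes, 52.4% were above 0, with a median of 0.02. The members share the same libraries, so these counts are not independent evidence on the strains. The mean log2(CPM + 0.5) of the mitotic members was 3.37, 3.57 and 3.04 in Tac111 replicates 1, 2 and 3. It was 3.1 to 3.22 in B6, so Tac111 replicate 3 lay below every B6 library. For the replication members this mean was 4.12 to 4.26 in Tac111 and 4.02 to 4.08 in B6. In 7 members (Birc5, Cdk1, Cenpa, Cdt1, E2f1, Rrm2 and Tk1) all 3 Tac111 libraries lay above all 3 B6 libraries, as in 13.7% of all genes. Without Tac146 replicate 4, which enters this fit through the shared spread, the scaling and the filter on low counts, edgeR called Cdk1 higher (0.50, SE 0.12, adjusted p = 0.0399), against 5.72% of the genes tested then, and 9 members had an unadjusted p under 0.05, against 25.1%. Hair follicle markers summed to 2940 to 5050 CPM in Tac111 and 2170 to 2750 in B6, and leukocyte and macrophage markers to 279 to 324 and 481 to 541. Of 12 basal keratinocyte markers, 11 had a fold change below 0 in Tac111, 5 with an unadjusted p under 0.05 by edgeR. None of the 12 was called by edgeR, and 3 were called lower by DESeq2. Their sums were 10300 to 10900 CPM against 10500 to 10900 in B6. Of 10 fibroblast and endothelial markers, 3 were called lower in Tac111. The part of these markers in the members' values was not tested.

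Between Tac146 and B6, edgeR called none of the 40 members, against 0.303% of all genes, and DESeq2 called none, against 0.710%. At an unadjusted p under 0.05, 4 members were higher in Tac146, all mitotic, and none lower, against 3.44% and 3.52% of all genes. They were Cenpf (log2 fold change 0.85, SE 0.34, adjusted p = 0.659), Cenpe (0.70, SE 0.31, adjusted p = 0.712), Mki67 (0.61, SE 0.27, adjusted p = 0.712) and Kif23 (0.57, SE 0.26, adjusted p = 0.715). All 23 mitotic members had a value above 0 with a median of 0.43, and 14 of 17 replication members one below 0 with a median of -0.11. Without Tac146 replicate 4 neither pattern was present: 14 of 23 mitotic members were above 0 with a median of 0.04, 12 of 17 replication members were above 0 with a median of 0.09, edgeR called none (0.263% of genes) and no member had an unadjusted p under 0.05, against 5.01% of genes. Cenpf then had 0.30 (SE 0.23, adjusted p = 1.00) and Mki67 0.20 (SE 0.19, adjusted p = 1.00). With all libraries, Cenpf and Kif23 were the 2 members whose Tac146 libraries all lay above B6, against 6.37% of all genes.

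**Figure D5:**
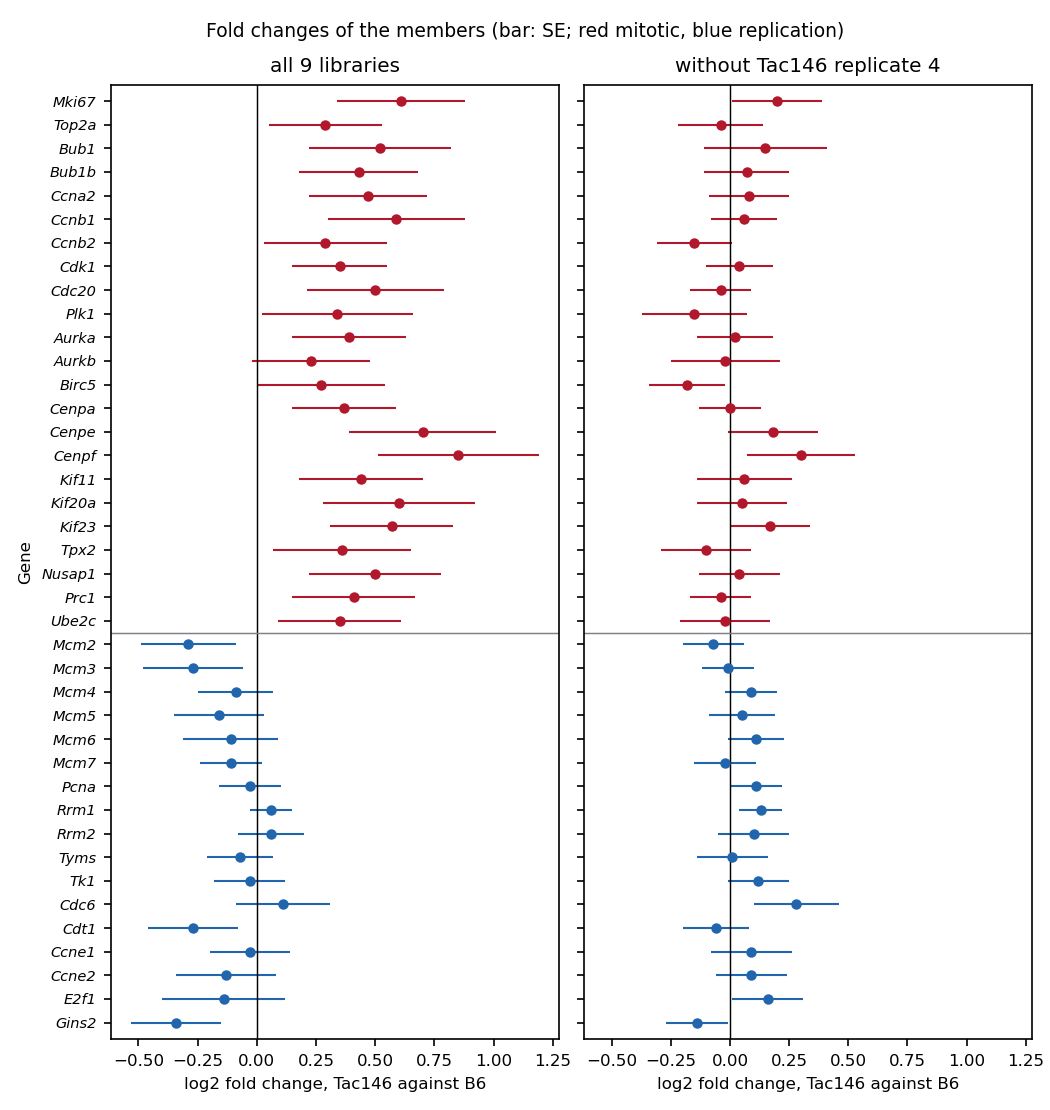
Log2 fold change of each member in Tac146 against B6 from edgeR (x axis), with all 9 libraries on the left and without Tac146 replicate 4 on the right; bars are the SE, red marks mitotic and blue replication genes. On the left the mitotic points all lie above 0, with a median of 0.43, and on the right they scatter around 0, with a median of 0.04.

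Between Tac111 and Tac146, edgeR called none of the 40 members, against 8.89% of all genes, and DESeq2 called 1, Cdt1, against 15.3%. At an unadjusted p under 0.05, Cdt1 (log2 fold change 0.56, SE 0.19, adjusted p = 0.0778) and Tk1 (0.42, SE 0.15, adjusted p = 0.0889) were higher in Tac111 and Cenpf was lower (-0.78, SE 0.34, adjusted p = 0.148), by edgeR. The matching shares of all genes were 13.9% and 17.0%. Cenpe followed at -0.67 (SE 0.31, adjusted p = 0.166). Replication members lay above 0 in 16 of 17 cases with a median of 0.27, and mitotic members below 0 in 20 of 23 cases with a median of -0.27. Without Tac146 replicate 4 the mitotic side turned, with 18 of 23 above 0 and a median of 0.15, and the replication median was 0.11. edgeR then called no member, against 5.24% of genes, and 4 had an unadjusted p under 0.05, against 24.3%. Cdt1 then had 0.36 (SE 0.14, adjusted p = 0.155), Tk1 0.28 (SE 0.13, adjusted p = 0.219) and Cenpf -0.24 (SE 0.23, adjusted p = 0.542). Cdt1, Gins2 and Tk1 were the 3 members whose Tac111 libraries all lay above Tac146, against 17.1% of all genes. Without Tac146 replicate 2, edgeR called 4 members, Cdt1, Mcm5, Mcm7 and Tk1, all higher in Tac111, against 10.9% of the genes tested then. Hair follicle markers lay above 0 in 17 of 17 cases, none called, at sums of 2940 to 5050 CPM in Tac111 and 1310 to 4650 in Tac146. Skeletal muscle markers summed to 36700 to 40000 and 22100 to 34700 CPM, and leukocyte and macrophage markers to 279 to 324 and 542 to 673, with 7 of 10 of the latter called lower in Tac111. Of 12 basal keratinocyte markers 2 were called lower, and of 10 fibroblast and endothelial markers 3. The part of these markers in the members' values was not tested. The 3 comparisons share libraries, so they are not independent of each other. Over all genes the split was 433 higher and 1036 lower, and 606 and 822 with upper-quartile scaling.

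Of 129 other cell cycle genes, 128 passed the filter on low counts. Pttg1, which encodes securin, the inhibitor of sister chromatid separation, was the 1 gene of these called by edgeR between Tac111 and B6, against 3.80% of all genes tested. It stood at 31.9, 28.4 and 30.3 CPM in B6, 5.0, 5.82 and 6.46 in Tac111 and 27.1, 28.3 and 23.3 in Tac146 replicates 2, 3 and 4. The Tac111 libraries thus lay far below all others, with a log2 fold change of -2.39 (SE 0.12, adjusted p = 4.24e-06) against B6 and -2.18 (SE 0.12, adjusted p = 4.48e-06) against Tac146, and it stayed called without Tac146 replicate 4. Unlike the mitotic members, Pttg1 was not higher in Tac146 replicate 4, at 0.841 times the mean of the other Tac146 libraries.

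Between Tac146 and B6, none of the 128 was called by edgeR or DESeq2, against 0.303% and 0.710% of all genes. At an unadjusted p under 0.05, 4 other mitotic genes (Ect2, Hmgb2, Incenp and Kif4) and 1 gene of cell cycle entry (Cdk6) were higher and none was lower, against 3.44% and 3.52% of all genes. Without Tac146 replicate 4 none of the 128 had an unadjusted p under 0.05, against 5.01% of the genes tested then. Between Tac111 and Tac146, 5 were called, against 8.89% of all genes. Besides Pttg1, Hmmr, a spindle protein, was lower in Tac111 (-1.31, SE 0.33, adjusted p = 0.0404), with 3.53, 3.97 and 2.18 CPM against 5.20, 5.84 and 12.8, and so was Cdk6, a kinase of G1 (-0.87, SE 0.16, adjusted p = 0.0108). Pole2, a subunit of DNA polymerase epsilon (0.64, SE 0.16, adjusted p = 0.0392), and Rfc4, a subunit of the clamp loader (0.63, SE 0.14, adjusted p = 0.0281), were higher in Tac111. Without Tac146 replicate 4, Cdk6 (-0.67, adjusted p = 0.0122) and Pttg1 remained called, and Hmmr (-0.78, adjusted p = 0.0641), Pole2 (0.49, adjusted p = 0.0809) and Rfc4 (0.52, adjusted p = 0.0592) did not pass. In that fit 5.24% of the genes tested were called. The same fit called 4 of these genes between Tac111 and B6, against 5.72%, with Hmgb2 and Pole2 higher and Hmmr and Pttg1 lower in Tac111.

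The wider lists gave the same picture of Tac146 replicate 4. Against the mean of replicates 2 and 3, 48 of 50 other mitotic genes stood higher with a median of 1.67 times, and 46 of 52 other replication genes stood lower with a median of 0.82 times. This library was the highest of the 9 for 38 other mitotic genes and the lowest for 30 other replication genes. The 26 genes of cell cycle entry and its inhibitors had a median of 1.03, from 0.359 for Wee1, the kinase that holds Cdk1 inactive, to 1.51 for Cdkn2b, an inhibitor of G1 kinases.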

How the data were processed

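RNA from labial mucosa biopsies of 9 libraries, 3 per strain, was sequenced from a TruSeq stranded polyA preparation, per the labels' protocols. The deposited values used are expected counts per gene, made by the authors with STAR and RSEM on GRCm38, per the submitters' processing notes; no source used here gives versions or the strand setting. Expected counts were rounded to whole numbers and tested with edgeR 4.0.16 in R 4.3.3 (TMM factors, filterByExpr, quasi-likelihood test, 1 mean per strain, Benjamini-Hochberg over 16520 genes, threshold 0.05), after a test on simulated data. CPM are TMM-scaled, and scores used a pseudocount of 0.5. Exon lengths and gene positions came from the GRCm38 annotation, promoters from RefSeq (GRCm38.p6; 33 of 40 members matched). DESeq2 1.42.0, other scalings, other filters, a replicate block, only 6 libraries and each library left out were alternatives. Same-strain libraries differed beyond sampling noise (chi-square per degree of freedom 15.7 to 95.4), so none was counted as a repeat. Per-library values are given for 14 fixed members, the 4 with the smallest p in each comparison and any called; the other members are given by range. Of the other lists, up to 4 called genes per list and comparison are named. The members and lists were chosen with earlier results of these data known, and the clock genes after the members' values were seen. Counting precision follows from the totals of each library, given with the results.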

Additional observations from a re-analysis of the deposited data

How the results depend on the processing

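With 3 libraries a strain, and 2 once one is left out, small changes were not detectable. Leaving out 1 library changed the sign of the fold change for 7 of the 20 named members between Tac111 and B6, for 11 between Tac146 and B6 and for 8 between Tac111 and Tac146. Of the named members' fold changes recomputed under settings other than leaving out a library, 401 kept their direction and side of the threshold, 17 changed sign and 2 passed the threshold. The count of members called between Tac111 and Tac146 was 1 with DESeq2, 1 when genes of low count were kept, and 0 to 4 with a library left out, with 4 without Tac146 replicate 2; between Tac111 and B6 it was 0 to 1, with 1 without Tac146 replicate 4. Other cell cycle genes called between Tac111 and B6 (1) were 2 with DESeq2, 2 with no filter, 2 with the replicate block, 3 with only the 6 libraries and 1 to 4 with a library left out (Tac111 replicate 1 and Tac146 replicate 4 raised it by over 1.5 times). Over all genes, edgeR called 3.80%, DESeq2 6.48%, and edgeR without Tac146 replicate 4 5.72%. With no filter edgeR called 273 higher and 749 lower of 27528. With the block these were 338 and 534 of 16520, with only the 6 libraries 310 and 571 of 16130, and without Tac111 replicate 1 106 and 366 of 16850. Between Tac111 and Tac146 (5) the other cell cycle genes called were 8 with DESeq2, 8 with no filter, 2 with the block, 2 with only the 6 libraries and 2 to 15 with a library left out (2 without Tac146 replicate 4, 15 without replicate 2). Over all genes, edgeR called 8.89%, DESeq2 15.3%, and edgeR 5.24% without Tac146 replicate 4 and 10.9% without replicate 2. With no filter edgeR called 683 higher and 1483 lower of 27528. With the block these were 231 and 401 of 16520, and with only the 6 libraries 127 and 514 of 16331. The cause of these changes was not tested. Same-numbered libraries did not deviate together (r from -0.089 to 0.206), so the numbers give no pairing. In the fit with the replicate block, number 4 occurs in 1 library, which then carries no weight, and log2 fold changes turned as follows. Between Tac146 and B6 they were Ccne1 0.02, Cdc20 -0.05, E2f1 0.14, Mcm5 0.04, Pcna 0.09, Plk1 -0.22, Tk1 0.13 and Top2a -0.05. Between Tac111 and Tac146 they were Aurkb 0.01, Cdc20 0.24, Cdc6 -0.19, Mcm2 -0.15, Mki67 0.00, Plk1 0.45 and Top2a 0.01, and between Tac111 and B6 Kif23 had 0.00. Top2a had 0.01 there with upper-quartile scaling. Leaving out each library gave, between Tac111 and B6, log2 fold changes of -0.20 to 0.16 for Top2a, -0.07 to 0.15 for Ccnb1, -0.01 to 0.39 for Plk1, -0.08 to 0.25 for Aurkb, -0.17 to 0.17 for Cenpe, -0.13 to 0.31 for Cenpf and -0.10 to 0.17 for Kif23. Between Tac146 and B6 they were -0.04 to 0.46 for Top2a, -0.04 to 0.71 for Cdc20, -0.15 to 0.58 for Plk1, -0.02 to 0.44 for Aurkb, -0.45 to 0.05 for Mcm5, -0.19 to 0.11 for Pcna, -0.10 to 0.16 for Rrm2, -0.20 to 0.12 for Tk1, -0.08 to 0.28 for Cdc6, -0.19 to 0.09 for Ccne1 and -0.43 to 0.16 for E2f1. Between Tac111 and Tac146 they were -0.57 to 0.03 for Mki67, -0.49 to 0.02 for Top2a, -0.11 to 0.46 for Bub1, -0.52 to 0.23 for Cdc20, -0.35 to 0.40 for Plk1, -0.38 to 0.08 for Aurkb, -0.11 to 0.38 for Mcm2 and -0.14 to 0.21 for Cdc6.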

Other observations

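Genes of the circadian clock, a list of 16 chosen after the members' values were seen and given with no test, also set Tac146 replicate 4 apart. Npas2 and Clock, partners of the activator Arntl, stood at 8.97 and 126 CPM in it, and at 1.70 to 2.95 and 51.9 to 79.0 in the other 8 libraries. Dbp and Ciart, clock output and repressor genes, stood at 51.6 and 4.19 CPM, against 123 to 150 and 11.7 to 13.4. Per3 stood at 21.7 against 45.8 to 57.0, and Tef at 149 against 284 to 310. Of the 16 genes, 3 were the highest and 11 the lowest of the 9 libraries in Tac146 replicate 4, where the shares over all genes tested were 22.4% and 21.4%. Nr1d1 and Bhlhe40 lay inside the range of the other libraries, at 151 and 196 CPM.

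Wee1, a kinase that restrains mitotic entry, stood at 10.4 CPM in the same library and at 17.1 to 29.4 in the others. Orc1, a subunit of the origin recognition complex, stood at 0.573 CPM against 1.14 to 2.28. For both genes this library was the lowest of the 9. Each also had the lowest value of its list relative to the mean of the other Tac146 libraries. Wee1 stood at 0.359 times, where the 26 genes of cell cycle entry and its inhibitors had a median of 1.03. Orc1 stood at 0.354 times, where the 52 other replication genes had a median of 0.82. Whether Wee1, Orc1 or the clock genes had a part in the members' values was not tested. No source used here gives the time of day of the biopsies.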
